A study of Mus musculus with 8 samples.

Results

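The genes described here are 10 cyclic nucleotide phosphodiesterase genes, Pde1a, Pde1c, Pde3a, Pde3b, Pde4b, Pde4d, Pde5a, Pde7b, Pde8b and Pde10a, taken by gene name from a table of 53801 genes. All 10 were found, and all 10 passed the filter on low counts. The set was built around Pde1c, which was selected on the difference in its counts between the sorted fractions, and the others are its family context. The difference between the fractions is therefore given as a description for these 10 genes. Calls and adjusted p-values of that difference are not read as support for it. RNA was sequenced from 8 libraries of stromal cells of the mouse small intestine, 4 of YFP+PDGFRα+ cells and 4 of YFP+PDGFRα- cells. By the labels, every library came from cells without CD45, the leukocyte marker, and without CD31, the endothelial marker. The mice are named LTβRfloxPDGFRα/YFP in the series text, so both groups carry YFP and the floxed gene of the lymphotoxin β receptor. The labels do not spell out which promoter drives recombination, the age of the mice or how many were pooled.

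Phosphodiesterases hydrolyse the second messengers cAMP and cGMP and so end their signals. Enzymes of the PDE4, PDE7 and PDE8 families act on cAMP, those of PDE5, PDE6 and PDE9 on cGMP, and those of PDE1, PDE2, PDE3, PDE10 and PDE11 on both. The PDE1 enzymes are switched on by calcium and calmodulin, and PDE3 is inhibited by cGMP. In the gut wall, nitric oxide and cGMP relax smooth muscle, and many hormones and prostaglandins act on stromal cells through cAMP.

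Sequences before the RefSeq starts at hand are shown for Pde1c, because the set was built around it. With them are that of Pde7b, the other gene whose groups did not overlap, and 1 of Pde4b. The level of Pde4b followed the replicate number rather than the fraction. Each is the 250 bases before an annotated RefSeq start, on the GRCm38.p6 build and read 5′ to 3′ on the gene's strand. Capitals mark the core letters TGACG, or their reverse complement, of the cAMP response element bound by CREB.
Pde1c, most upstream of its 3 RefSeq windows, chr6:56369635-56369884, minus strand: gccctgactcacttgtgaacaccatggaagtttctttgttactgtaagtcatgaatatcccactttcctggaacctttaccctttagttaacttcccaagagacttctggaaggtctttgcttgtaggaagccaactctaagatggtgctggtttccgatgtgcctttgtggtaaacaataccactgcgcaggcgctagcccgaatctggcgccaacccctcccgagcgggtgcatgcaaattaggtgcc
Pde1c, middle window, chr6:56362811-56363060, minus strand: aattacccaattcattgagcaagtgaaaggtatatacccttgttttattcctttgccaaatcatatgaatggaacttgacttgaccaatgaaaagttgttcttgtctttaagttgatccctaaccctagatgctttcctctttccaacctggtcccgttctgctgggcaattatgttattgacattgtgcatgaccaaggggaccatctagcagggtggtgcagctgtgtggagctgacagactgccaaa
Pde1c, most downstream window, chr6:56362393-56362642, minus strand: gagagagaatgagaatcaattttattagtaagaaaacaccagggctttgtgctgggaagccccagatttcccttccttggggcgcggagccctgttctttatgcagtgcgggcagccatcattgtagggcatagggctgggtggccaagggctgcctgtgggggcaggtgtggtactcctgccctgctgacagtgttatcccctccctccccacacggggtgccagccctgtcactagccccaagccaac
Pde7b, chr10:20548329-20548578, minus strand: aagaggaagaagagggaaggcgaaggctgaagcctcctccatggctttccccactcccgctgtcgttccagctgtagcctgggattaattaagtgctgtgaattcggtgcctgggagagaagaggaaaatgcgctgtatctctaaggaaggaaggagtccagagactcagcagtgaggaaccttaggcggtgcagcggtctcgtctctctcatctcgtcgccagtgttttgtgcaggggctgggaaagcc
Pde4b, most upstream of its 4 RefSeq windows, chr4:102421305-102421554, plus strand: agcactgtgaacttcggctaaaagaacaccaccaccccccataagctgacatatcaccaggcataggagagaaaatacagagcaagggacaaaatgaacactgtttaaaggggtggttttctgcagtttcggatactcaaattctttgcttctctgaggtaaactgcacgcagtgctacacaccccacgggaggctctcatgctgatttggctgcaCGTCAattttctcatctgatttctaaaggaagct
RefSeq windows of 300 bases (250 before and 50 after the start) were at hand for 8 of the 10 genes, 21 windows in all. The full element TGACGTCA was in 0 of these 21 windows, against 1.79% of 32841 windows of all genes, searched on both strands. The core TGACG, which is part of the full element, was in 3 of 21 windows, 1 each of Pde1a, Pde4b and Pde8b, against 20.8% of all windows. In Pde4b it began 34 bases before the start, in Pde1a 166 bases before it and in Pde8b 39 bases after it. None of the 3 Pde1c windows held either. As annotated in GENCODE M21, these genes begin upstream of every window at hand, Pde1c at 56569103, Pde7b at 20725078 and Pde4b at 102087543. Those starts were not searched, and which start is used in these cells was not measured. A match of letters is a description, and its absence says only that these letters are not in this window.

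Total counts per library, in units of 1e+06, were 13.0 to 35.1 in PDGFRα+ and 12.9 to 26.9 in PDGFRα- libraries, so 1 read is worth less than 0.1 CPM in each. CPM here means counts per 1e+06 of TMM-scaled library size. Pdgfra RNA itself was at 597 ± 69.2 CPM in PDGFRα+ and 652 ± 124 CPM in PDGFRα- libraries (SD, n = 4 each). The groups overlapped, and the PDGFRα+ library was the higher one in 1 of 4 same-numbered pairs. The RNA of the sort marker thus did not separate the fractions, which are named here as the labels name them, and surface protein was not measured in these files. Genes of fibroblasts dominated both fractions, with summed levels of 7 markers from 88277 to 114033 CPM in PDGFRα+ and from 118885 to 168619 CPM in PDGFRα- libraries. Summed markers of epithelium were at 0.775 to 3.86 CPM in PDGFRα+ and 2.85 to 24.1 CPM in PDGFRα- libraries. Those of leukocytes were at 22.8 to 68.1 and 36.1 to 121 CPM, and those of pericytes at 696 to 1254 and 844 to 1605 CPM. Endothelial markers were at 60.6 to 162 and 75.3 to 554 CPM, highest in PDGFRα- library 4. Those of glia and neurons were at under 20 CPM in every library.

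Pde1c encodes a calcium-dependent enzyme that hydrolyses cAMP and cGMP, known in human arterial smooth muscle from proliferating rather than resting cells. It had 30.6, 76.8, 70.3 and 98.3 CPM in PDGFRα+ libraries 1 to 4, against 10.8, 16.3, 14.8 and 16.3 CPM in PDGFRα- libraries 1 to 4. Library 1 was the lowest in both groups, and the lowest PDGFRα+ value lay above every PDGFRα- value. The means were 69.0 ± 28.2 and 14.5 ± 2.60 CPM (SD, n = 4 each), a 4.74-fold difference (log2 fold change 2.25 ± 0.31 SE, 95% interval 1.59 to 2.91). Because the groups did not overlap, any pairing of libraries would give the same direction. The log2 ratios of same-numbered libraries were 1.5, 2.23, 2.24 and 2.59 for numbers 1 to 4. In these bulk samples, more cells that express Pde1c and more Pde1c RNA per cell cannot be told apart. Pde1c (ENSMUSG00000004347) lies on chromosome 6, from 56069804 to 56569103 on the minus strand of GRCm38. It spans 499.3 kb with 20067 bases of annotated exon and no exon of another gene overlaps them.

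The summed level of the cell cycle markers Mki67, Top2a, Cenpf, Ccnb1 and Cdk1 ran from 50.6 to 112 CPM in PDGFRα+ and from 6.32 to 14.8 CPM in PDGFRα- libraries. Of the 4 tested, 1 was called, Mki67 (edgeR adjusted p = 0.00137), where 0.243% of all tested genes were. Within the PDGFRα+ group the cell cycle sums of libraries 1 to 4 were 107, 112, 50.6 and 59.4 CPM. Pde1c was at 30.6, 76.8, 70.3 and 98.3 CPM in the same libraries. A relation between the 2 was not tested. Subepithelial fibroblast markers summed to 315 to 351 CPM in PDGFRα+ and 227 to 275 CPM in PDGFRα- libraries. Of these markers, 0 of the 6 tested were called (edgeR), and nothing is read from that count beside the share of 0.243%. In the authors' deposited table, Bmp5 and Frzb were higher, at an adjusted p of 9.8e-07 and 3.2e-08. Bmp4, Wnt5a, F3 and Sox6 did not pass 0.05 there. Bmp4 made the largest contribution to the sum, at 177 ± 19.4 and 143 ± 19.9 CPM. Bmp5 was at 59.1 ± 26.7 and 20.4 ± 8.82 CPM and Frzb at 18.9 ± 12.8 and 3.37 ± 4.13 CPM. The PDGFRα+ library was higher in 4 of 4 pairs for Bmp4, Bmp5 and Frzb, and in 2 of 4 for F3 and for Sox6. Wnt5a was at 24.8 ± 3.96 and 35.0 ± 5.11 CPM, with the PDGFRα+ library higher in 0 of 4 pairs. In that list Foxl1, a defining marker of telocytes, was at 0 counts throughout. Adventitial fibroblast markers summed to 916 to 1315 CPM in PDGFRα+ and 1400 to 2110 CPM in PDGFRα- libraries. Of these, 0 of 6 were called (edgeR), beside the same share of 0.243%. The authors' deposited table listed Cd81 and Grem1 as lower in PDGFRα+ cells, at an adjusted p of 4.7e-09 and 1.3e-11. Ackr4, Pi16, Cd34 and Dpp4 did not pass 0.05 there. Smooth muscle markers overlapped, at 607 to 1694 CPM in PDGFRα+ and 493 to 1989 CPM in PDGFRα- libraries. The part of these cells in the Pde1c difference was not tested.

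**Figure D1:**
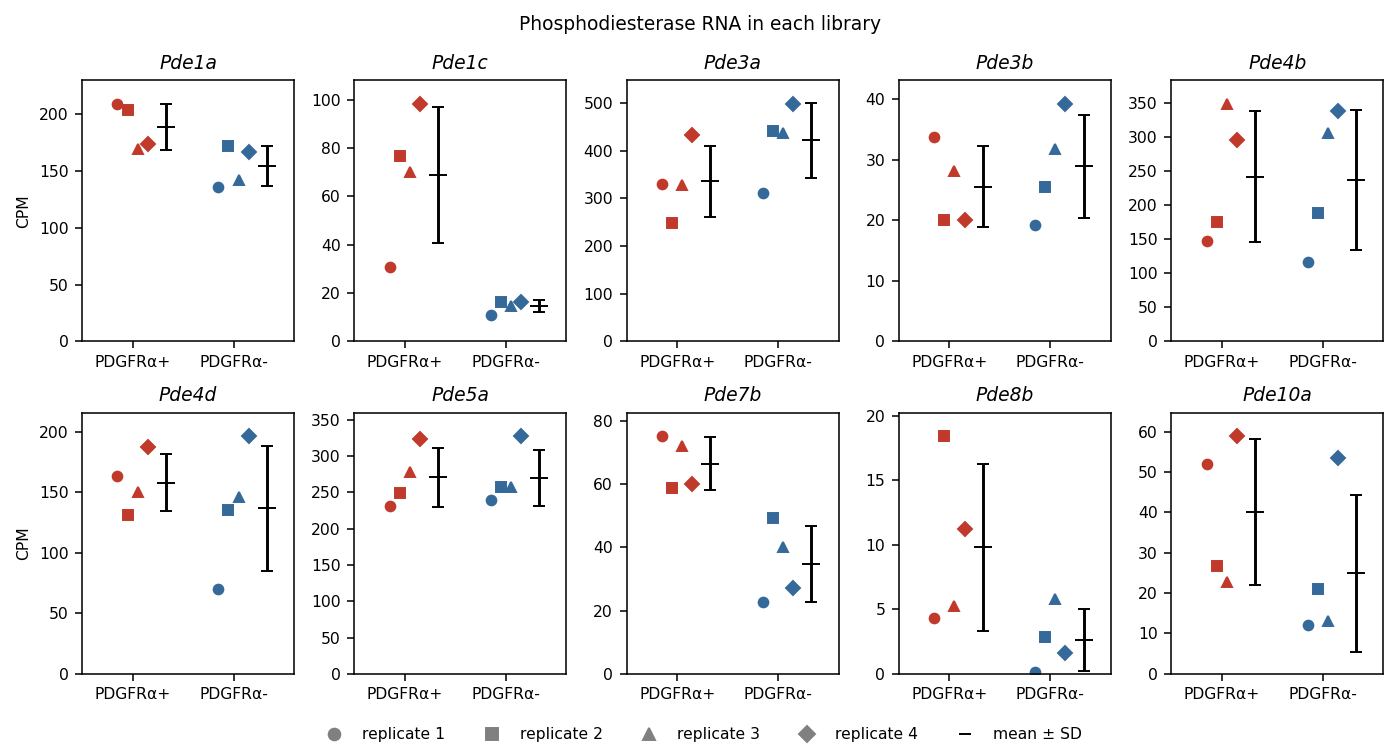
CPM of the 10 genes in each of the 8 libraries, with PDGFRα+ on the left of each panel and PDGFRα- on the right, the replicate number as the symbol, and mean ± SD in black (n = 4). Pde1c and Pde7b are the panels where the groups do not overlap; Pde4b has libraries 3 and 4 above libraries 1 and 2 in both groups.

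Among the other PDE1 genes, Pde1a was more abundant than Pde1c per length, and its groups overlapped. Pde1a, whose enzyme prefers cGMP, had 209, 204, 169 and 174 CPM in PDGFRα+ libraries 1 to 4, against 136, 172, 142 and 167 CPM in PDGFRα- libraries. PDGFRα+ library 3, the lowest of its group, lay below PDGFRα- library 2, and the log2 fold change was 0.29 ± 0.15 (SE, 95% interval -0.03 to 0.61). Pde1b, from the list of other family members, was at 30.4 ± 5.99 and 35.1 ± 7.48 CPM, with an edgeR log2 fold change of -0.21 ± 0.23 (SE, adjusted p = 0.970). Levels can be compared between genes only per length. The length used is that of all annotated exons, 20067 bases for Pde1c and 6012 for Pde1a. Which transcripts these cells make was not measured, and a shorter one would give a higher level per kilobase. Per kilobase of exon, Pde1a stood at 31.4 ± 3.43 CPM and Pde1c at 3.44 ± 1.41 CPM in PDGFRα+ libraries, and at 25.7 ± 2.95 and 0.725 ± 0.129 CPM in PDGFRα- libraries. The summed level of Pde1a, Pde1b and Pde1c per kilobase was 38.4 to 42.9 CPM in PDGFRα+ and 29.5 to 37.7 CPM in PDGFRα- libraries.

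Of the cAMP-specific genes, Pde7b had groups that did not overlap, and Pde8b, Pde4b and Pde4d had groups that did. Pde7b (chromosome 10, 20398004 to 20725078), which encodes a cAMP phosphodiesterase not inhibited by the PDE4 drug rolipram, had 75.1, 58.7, 72.1 and 60.0 CPM in PDGFRα+ libraries, against 22.8, 49.2, 40.1 and 27.1 CPM in PDGFRα- libraries. Its groups did not overlap, and its log2 fold change was 0.94 ± 0.24 (SE), 1.91-fold. Pde8b (chromosome 13, 95024454 to 95250336), a gene for a cAMP phosphodiesterase of high affinity, was the least abundant, at 4.36, 18.4, 5.23 and 11.2 CPM in PDGFRα+ and 0.122, 2.87, 5.77 and 1.61 CPM in PDGFRα- libraries. PDGFRα- library 3 lay above PDGFRα+ libraries 1 and 3, so the groups overlapped despite a log2 fold change of 1.93 ± 0.83 (SE). PDGFRα- library 1 held 3 reads of Pde8b, with an exact Poisson 95% interval of 0.619 to 8.77 reads that covers counting error only. Exons of Pde8b overlap those of Gm48420 on the other strand over 447 bases, and whether the counting used strand is not stated in the labels.

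The PDE4 genes, targets of the anti-inflammatory drug class that includes roflumilast, had overlapping groups at high levels in both fractions. Pde4b (chromosome 4, 102087543 to 102607259) had 148, 176, 349 and 296 CPM in PDGFRα+ libraries 1 to 4, against 117, 189, 306 and 339 CPM in PDGFRα- libraries 1 to 4. Its mean was 242 ± 95.7 and 238 ± 103 CPM, with a log2 fold change of 0.02 ± 0.37 (SE, 95% interval -0.82 to 0.86). Pde4d (chromosome 13, 108449948 to 109953461), which at 1503.5 kb spans the longest stretch of the 10, had 163, 131, 150 and 187 CPM in PDGFRα+ and 70.1, 135, 146 and 196 CPM in PDGFRα- libraries. PDGFRα- library 1 was the lowest of all 8 and library 4 the highest, and the log2 fold change was 0.20 ± 0.25 (SE).

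Pde5a, Pde3a and Pde3b gave no separation of the groups either. Pde5a, which encodes the cGMP phosphodiesterase of smooth muscle that sildenafil blocks, had 231, 249, 278 and 324 CPM in PDGFRα+ and 239, 258, 257 and 327 CPM in PDGFRα- libraries. The log2 fold change was 0.00 ± 0.16 (SE) with a 95% interval from -0.35 to 0.35. Pde3a, a gene for a cGMP-inhibited enzyme of heart and vascular muscle, had 331, 249, 329 and 433 CPM in PDGFRα+ and 311, 441, 437 and 498 CPM in PDGFRα- libraries, with a log2 fold change of -0.33 ± 0.19 (SE). Its relative Pde3b, known for its part in insulin action in fat and liver, had 33.8, 20, 28.2 and 20.1 CPM in PDGFRα+ and 19.2, 25.5, 31.7 and 39.2 CPM in PDGFRα- libraries (log2 fold change -0.18 ± 0.27 SE). For both genes the groups overlapped, and the PDGFRα+ library was the higher one in 1 of 4 same-numbered pairs. Exons of Pde3a overlap those of Gm28523 on the other strand over 741 bases, and those of Pde5a overlap 4930447N08Rik over 55 bases.

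Pde10a (chromosome 17, 8525372 to 8986648), best known from the striatum of the brain, had 52.0, 26.8, 22.7 and 58.8 CPM in PDGFRα+ and 12.1, 21, 13.0 and 53.5 CPM in PDGFRα- libraries. It was higher in the PDGFRα+ library of all 4 same-numbered pairs, yet PDGFRα- library 4 exceeded PDGFRα+ libraries 1, 2 and 3, and the log2 fold change was 0.68 ± 0.52 (SE).

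**Figure D2:**
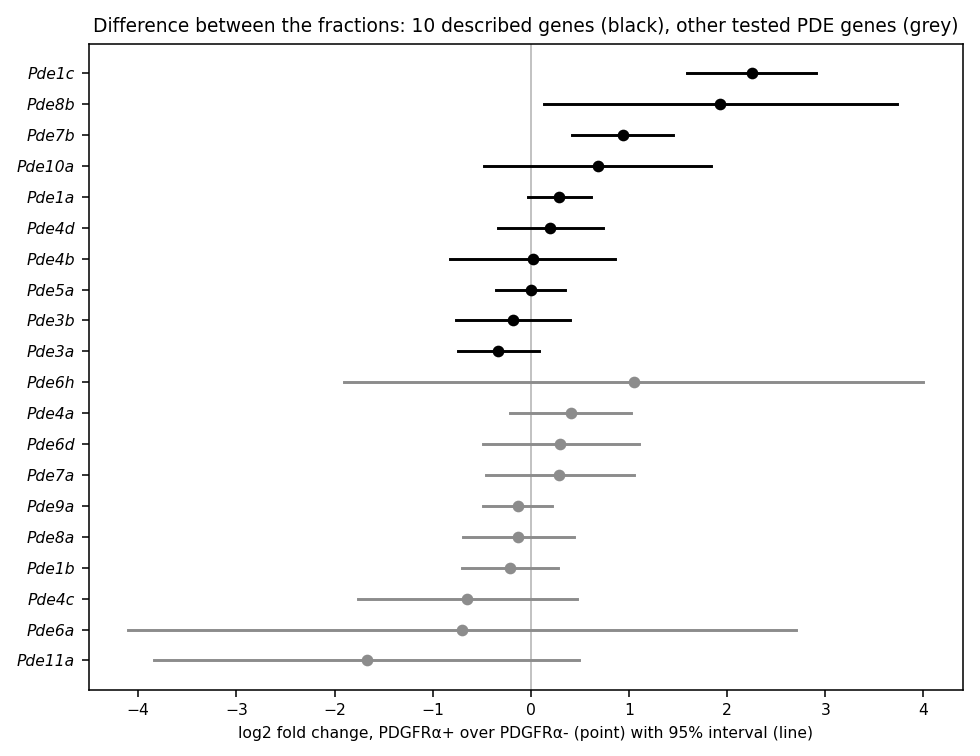
Log2 fold change of PDGFRα+ over PDGFRα- with its 95% interval for the 10 genes (black) and the 10 other tested phosphodiesterase genes (grey). Pde1c, at 2.25, has an interval from 1.59 to 2.91. The intervals of Pde7b (0.42 to 1.45) and Pde8b (0.13 to 3.73) also exclude 0. Those of the remaining black genes and of all grey genes include 0.

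Of the 10 genes, 1 was past the edgeR threshold of 0.05 as higher in PDGFRα+ cells, Pde1c, and 0 as lower, where 0.192% and 0.0511% of 15643 tested genes were called. Since the contrast chose Pde1c, nothing is read from that count, and leaving out PDGFRα- library 3 brought it to 0. The groups did not overlap, with PDGFRα+ higher, for 2 of the 10, as for 2.69% of all tested genes, and with PDGFRα+ lower for 0 of the 10, as for 2.36%. The log2 fold changes had a median of 0.25 over the 10 genes and of -0.01 over all tested genes. They were positive for 8 of the 10 and for 49.1% of all. The 8 include Pde1c, which the contrast chose, and Pde4b (0.02) and Pde5a (0.00), which barely differed. In the authors' deposited table, 3 of the 10 were listed as higher at an adjusted p under 0.05, Pde1c (log2 fold change 2.14), Pde7b (0.98) and Pde8b (2.54), where 2.30% of 16785 genes with an adjusted p were higher and 4.82% differed either way. Of 14 other phosphodiesterase genes and subunits, 10 were tested and 0 were called in either direction, with a median log2 fold change of -0.13 (edgeR, 0 also at an unadjusted p under 0.05). The most abundant of these was Pde9a, for a cGMP-specific enzyme of high affinity, at 62.3 ± 5.93 and 68.4 ± 8.93 CPM, with an edgeR log2 fold change of -0.13 ± 0.17 (SE, adjusted p = 0.970). Pde11a had the lowest unadjusted p of that list, at 0.831 ± 0.849 and 2.66 ± 1.24 CPM, an edgeR log2 fold change of -1.67 ± 1.01 (SE, adjusted p = 0.860). Pde2a was listed at 0 counts in every library, and 3955 bases of its exons are shared with Gm45837 on the same strand, so its 0 is not read as absence of RNA.

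Ordered by level per kilobase of exon, the 10 genes fell into an abundant and a scarce set. In PDGFRα+ libraries the order was Pde1a (31.4 CPM per kilobase), Pde5a (27.5), Pde3a (26.4), Pde4b (22.9), Pde4d (13.1), Pde7b (5.34), Pde1c (3.44), Pde10a (3.12), Pde3b (2.80) and Pde8b (1.67). Of these neighbours only Pde4d and Pde7b had ranges that did not overlap. In PDGFRα- libraries the order per kilobase was Pde3a (33.1), Pde5a (27.5), Pde1a (25.7), Pde4b (22.5), Pde4d (11.4), Pde3b (3.17), Pde7b (2.80), Pde10a (1.94), Pde1c (0.725) and Pde8b (0.441). Ranges of neighbours did not overlap there between Pde4d and Pde3b and between Pde10a and Pde1c. Pde1c thus held place 7 of 10 in PDGFRα+ and place 9 in PDGFRα- libraries.

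**Figure D3:**
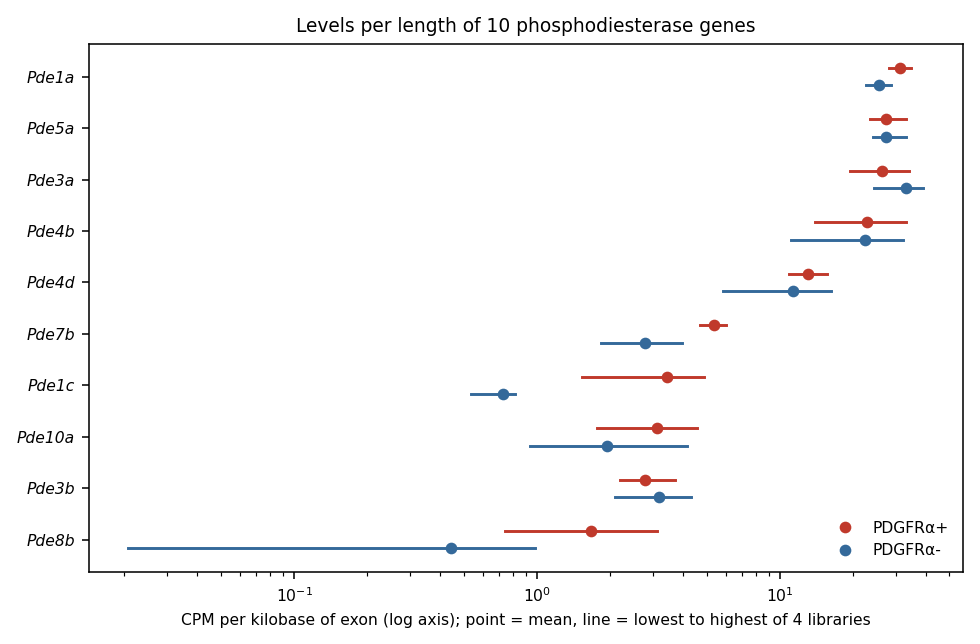
Level per length, as CPM per kilobase of annotated exon on a log axis, with PDGFRα+ above PDGFRα- for each gene; points are means and lines run from the lowest to the highest of 4 libraries. The first 5 genes lie above the other 5 within each group, and Pde1c and Pde7b are the genes whose 2 lines do not overlap.

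The summed RNA of the family did not separate the fractions. Over 21 genes of catalytic subunits, the summed level per kilobase was 162, 154, 181 and 195 CPM in PDGFRα+ libraries, against 128, 168, 174 and 204 CPM in PDGFRα- libraries. The 10 genes made up 78.9% to 80.9% of that sum in PDGFRα+ and 73.4% to 78.6% in PDGFRα- libraries. Pde1c made up 0.940%, 2.49%, 1.94% and 2.51% in PDGFRα+ libraries, against 0.421%, 0.484%, 0.423% and 0.398% in PDGFRα- libraries. Genes of enzymes that act on both nucleotides held 42.3% ± 3.30 and 42.8% ± 3.35 of the sum, those specific for cAMP 31.4% ± 2.89 and 28.8% ± 4.80, and those specific for cGMP 26.3% ± 1.27 and 28.4% ± 2.16, each given for PDGFRα+ and then PDGFRα- libraries (SD, n = 4 each). These shares are of RNA and not of enzyme activity. Pde2a, of the genes that act on both nucleotides, entered the sums at 0, which is not read as absence of its RNA.

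Genes whose levels ran most like that of Pde1c over the 8 libraries were searched among 6248 genes with a mean of at least 20 CPM. Likeness was the root mean square difference of log2 CPM, each gene centred on its own mean. The 5 nearest were the latrophilin gene Adgrl3 (0.33), the collagen VI chain gene Col6a5 (0.39), the protease-like gene Adamdec1 (0.48), the protease gene Adamts14 (0.50) and the tenascin gene Tnc (0.51). Adgrl3 had 134, 236, 191 and 232 CPM in PDGFRα+ and 29.2, 59.0, 66.0 and 68.8 CPM in PDGFRα- libraries, with library 1 lowest in both groups as for Pde1c. Of the other phosphodiesterase genes searched, Pde7b was nearest (0.82), behind 92 genes. These likenesses rest on the same difference that chose Pde1c and carry no test.

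Apart from the groups, the libraries differed by replicate number, a property the choice of genes did not use. An edgeR test of replicate number, in a model that also held the group, was added after the data were seen. It asks whether levels differed between the numbers, and a gene can pass it through 1 library. Pde4b passed it (edgeR adjusted p = 5.6e-04), with both libraries of numbers 3 and 4 above all 4 of numbers 1 and 2, at means of 133, 182, 327 and 317 CPM for numbers 1 to 4. It was 1 of 10 genes past that test, where 4.28% of all 15643 genes were called. Pde10a (edgeR adjusted p = 0.0684) and Pde1c (0.108) missed the threshold. Leaving out PDGFRα+ library 1 gave 3 genes, leaving out PDGFRα- library 1 gave 2 and leaving out PDGFRα- library 2 gave 4, where 3.15%, 2.47% and 8.04% of all genes tested in those fits were called. Pde4b was among them each time.

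The spread of each gene was also split by group and replicate number. Pde1c was chosen on the group difference, so its large share by group follows from that choice. As a share of the sum of squares of log2 CPM over the 8 libraries, the group took 83.3% for Pde1c and 69.2% for Pde7b but 0.232% for Pde4b. The replicate number took 13.8%, 11.1% and 96.2% for these 3 genes. Pde5a resembled Pde4b in this split, with 96.4% by number, although it did not pass the test of the number (edgeR adjusted p = 0.296). Over all tested genes the median shares were 9.63% by group and 50.1% by number, where a number with 3 degrees of freedom takes a large share by its construction. The labels do not say what same-numbered libraries have in common.

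**Figure D4:**
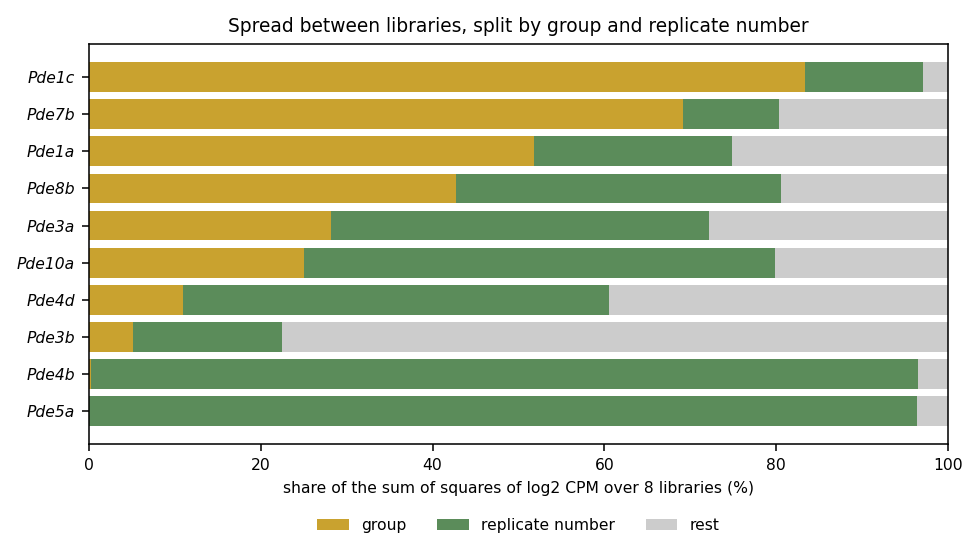
Share of the sum of squares of log2 CPM over 8 libraries taken by the group, the replicate number and the rest, for each of the 10 genes. The group takes most of the bar for Pde1c (83.3%), which was chosen on that difference. The number takes most of it for Pde4b (96.2%) and Pde5a (96.4%).

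Genes that make, sense, carry and export cyclic nucleotides, together with the 14 other phosphodiesterase genes and subunits described above, form 9 lists of 104 genes, of which 90 were tested. None was called between the fractions in either direction (edgeR, group as the only term), where 0.243% of all tested genes were. At an unadjusted p under 0.05 there were 8 higher and 4 lower, beside 583 and 504 of all 15643 genes. DESeq2 called 1, Ptger2, beside 205 of 14970 genes, and limma-voom called 0, beside 45 of 15643. With the replicate number as a block, edgeR called 5 higher and 2 lower, beside 355 of 15643, though pairing by number is not established. The median log2 fold change of the 90 genes was -0.03, beside -0.01 over all tested genes. The authors' deposited table listed 5 as higher and 4 as lower at an adjusted p under 0.05, where 2.30% and 2.52% of its genes were.

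Of 17 genes of receptors coupled to cAMP synthesis, their G proteins and their partners, 16 were tested and 10 had positive log2 fold changes. Ptger2, the gene of a prostaglandin E2 receptor, was at 11.2 ± 6.35 and 2.84 ± 1.65 CPM, an edgeR log2 fold change of 1.97 ± 0.55 (SE, adjusted p = 0.260). Calcrl, whose protein forms the CGRP and adrenomedullin receptors, was at 251 ± 115 and 170 ± 71.4 CPM (edgeR adjusted p = 0.921), and Gnas, the gene of the stimulatory G protein subunit, at 578 ± 28.4 and 664 ± 76.1 CPM (edgeR adjusted p = 0.918). Of 10 adenylyl cyclase genes, 5 had positive log2 fold changes. Adcy2, for a cyclase not driven by calcium, was at 90.7 ± 8.26 and 60.9 ± 2.17 CPM, an edgeR log2 fold change of 0.57 ± 0.15 (SE, adjusted p = 0.209). Adcy5, for a calcium-inhibited cyclase, was at 116 ± 20.5 and 90.6 ± 12.4 CPM, and Adcy7 at 107 ± 22.2 and 97.7 ± 19.6 CPM.

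For cGMP, 11 of 14 genes of synthesis were tested. Gucy1a1 and Gucy1b1, which encode the subunits of the nitric oxide receptor, were at 207 ± 37.0 and 109 ± 17.4 CPM in PDGFRα+ libraries, against 145 ± 14.8 and 80.2 ± 15.6 CPM in PDGFRα- libraries (edgeR adjusted p = 0.354 and 0.612). Npr1, the gene of a natriuretic peptide receptor that makes cGMP, stood at 29.7 ± 10.1 and 51.2 ± 7.82 CPM, an edgeR log2 fold change of -0.79 ± 0.25 (SE, adjusted p = 0.340). Exons of Npr1, Adcy2, Gnas, Ptger2, Mrvi1, Akap7 and Pde9a overlap genes on the other strand.

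Downstream, 13 of 16 effector genes were tested. Prkar2b, a regulatory subunit gene of cAMP-dependent kinase, was at 54.1 ± 9.18 and 32.6 ± 5.32 CPM, an edgeR log2 fold change of 0.73 ± 0.20 (SE, adjusted p = 0.239). Prkar1a, for another regulatory subunit, was at 186 ± 11.8 and 171 ± 12.9 CPM, and Prkg1, the gene of cGMP-dependent kinase I, at 200 ± 50.1 and 193 ± 87.9 CPM. Among 12 genes of kinase anchors, of which 10 were tested, Akap12 stood at 821 ± 155 and 697 ± 159 CPM, Akap13 at 451 ± 29.7 and 507 ± 101 CPM and Akap7 at 49.4 ± 9.74 and 37.1 ± 4.54 CPM. Calm2, one of the calmodulin genes whose protein activates PDE1, was at 233 ± 32.9 and 262 ± 12.7 CPM. Mrvi1 and Ppp1r12a, for substrates of cGMP-dependent kinase, were at 68.2 ± 15.1 and 231 ± 37.0 CPM in PDGFRα+ libraries, against 51.6 ± 12.4 and 224 ± 60.6 CPM in PDGFRα- libraries. The exporter genes Abcc4 and Abcc5 were at 14.5 ± 2.01 and 84.1 ± 12.9 CPM in PDGFRα+ libraries, against 16.9 ± 7.20 and 82.1 ± 29.6 CPM in PDGFRα- libraries.

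Among CREB, its coactivators and genes that cAMP is known to induce, 6 were past the test of the replicate number and 0 past that of the group (edgeR). Of 12 such genes, all tested, 2 had positive log2 fold changes, and the lowest unadjusted p between the fractions was that of Fos, at 2080 ± 692 and 3311 ± 384 CPM, an edgeR log2 fold change of -0.67 ± 0.23 (SE, adjusted p = 0.400). In the test of the number, 6 of the 12 passed (edgeR), Crtc2, Sik1, Nr4a1, Nr4a2, Nr4a3 and Per1, out of 10 of all 90 tested pathway genes, or 11.1%, beside 4.28% of all tested genes. Nr4a2, for an orphan nuclear receptor, had 74.5, 22.6, 65.0 and 104 CPM in PDGFRα+ libraries 1 to 4, against 73.4, 25.3, 58.2 and 115 CPM in PDGFRα- libraries 1 to 4 (edgeR adjusted p of the number = 1.3e-04). Sik1, for a kinase that restrains CREB coactivators, had 105, 77.0, 156 and 217 CPM in PDGFRα+ and 114, 88.9, 175 and 274 CPM in PDGFRα- libraries (edgeR adjusted p of the number = 1.7e-04). Both were lowest in library 2 and highest in library 4 of each group, whereas Pde4b was lowest in library 1. Crtc2, for a CREB coactivator, was lowest in library 1 and highest in library 3 of both groups, at 53.6 and 172 CPM in PDGFRα+ and 59.2 and 141 CPM in PDGFRα- libraries. The remaining genes past that test were Calcrl, the cAMP sensor genes Rapgef3 and Rapgef4, and Nos3, the endothelial nitric oxide synthase gene. Rapgef4 had 51.4 CPM and Nos3 28.2 CPM in PDGFRα- library 4, against 12.8 and 0.966 CPM in PDGFRα+ library 4. Endothelial markers summed to 554 CPM in PDGFRα- library 4. Their sums were 60.6 to 162 CPM in PDGFRα+ libraries and 75.3 to 123 CPM in PDGFRα- libraries 1 to 3. The part of endothelial cells in these values was not tested.

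**Figure D5:**
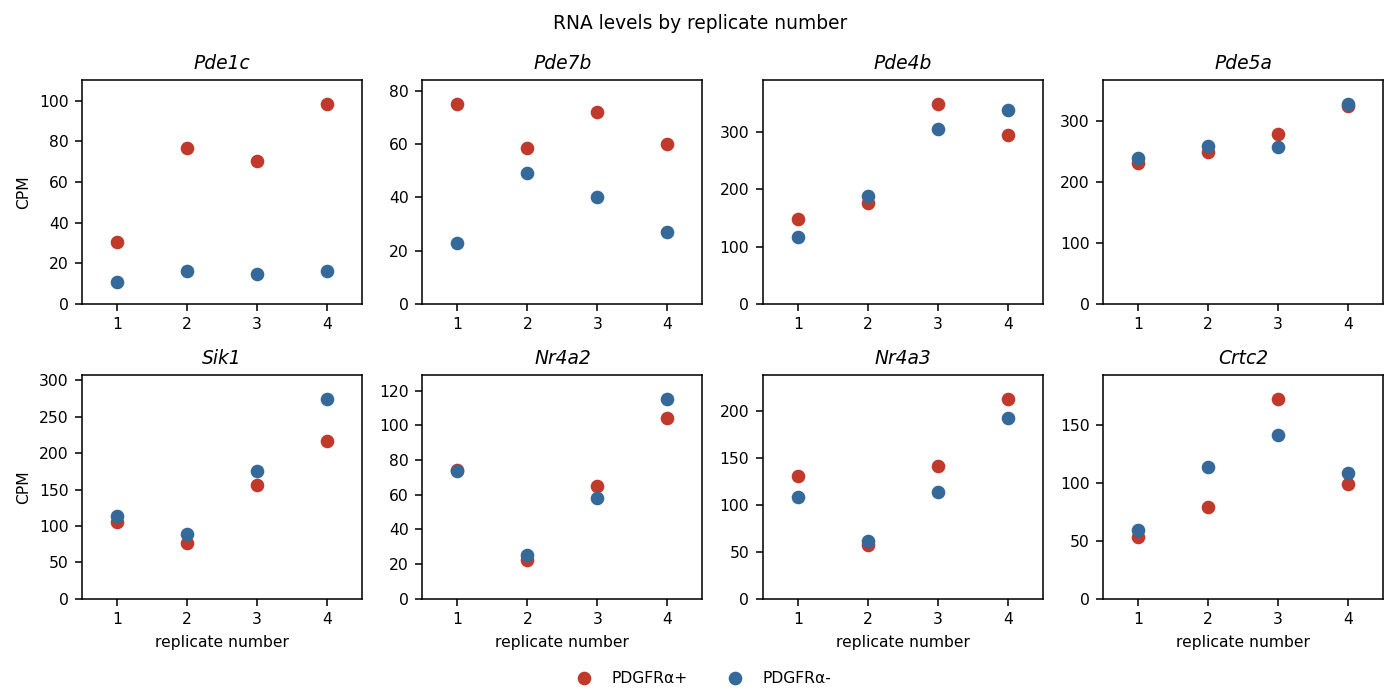
CPM by replicate number for 4 phosphodiesterase genes (top) and 4 genes of the CREB list (bottom), with PDGFRα+ in red and PDGFRα- in blue. The colours part for Pde1c at every number, while for Pde4b and Nr4a2 the same-numbered libraries lie close together, as at 22.6 and 25.3 CPM for Nr4a2 in number 2.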

How the data were processed

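Per the labels' protocols, cells were sorted into lysis buffer and their RNA entered a strand-aware library kit for low inputs. The submitters' processing notes name cutadapt 3.4, STAR 2.7.3a, featureCounts 2.0.1, DESeq2 and the GRCm38 (mm10) build; settings and annotation are not stated there. The authors deposited 1 table of raw read counts per gene. Per the file headers it also holds normalized counts, read as a score and not used, and the authors' comparison, given as a fold ratio, its log2, and a p-value before and after adjustment.

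Differences between fractions come from edgeR 4.0.16 (quasi-likelihood, robust fit, R 4.3.3; TMM factors, filterByExpr leaving 15643 genes, group as the only term, Benjamini-Hochberg adjusted p under 0.05 over all tested genes). DESeq2 1.42.0, limma 3.58.1, other normalization, no filter, the replicate number as a block and leaving out each library were alternatives. The procedure was tested on simulated counts. Exon lengths and positions come from GENCODE M21, start-site sequences from RefSeq on GRCm38.p6. The genes and lists were chosen with earlier results of these data known. All 10 genes are named; of each pathway list, genes past the threshold, the 2 most abundant and the 1 with the lowest unadjusted p. Other genes named beside the test of the number are those past it. No libraries held identical values. Whether each library is a different mouse is not in the labels, and the p-values reflect library-to-library spread alone, part of which may be technical.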

Additional observations from a re-analysis of the deposited data

Results flagged for a closer look

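In 3 of 70 groups of 4 values checked, 1 library lay far from the other 3 by Dixon's criterion, which chance alone meets in about 1 of 20 groups. All 3 were PDGFRα+ library 2 as the highest. Pde11a was at 2.09 CPM there, against 0.226 to 0.520 CPM in the other PDGFRα+ libraries. Ptger2 was at 20.7 CPM there and at 7.30 to 8.63 CPM in the others, and Abcc5 at 103 CPM there and at 75.7 to 79.7 CPM in the others. None of the 10 described phosphodiesterase genes met the criterion.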

How the results depend on the processing

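Pde1c kept a positive log2 fold change in all 13 alternatives, from 2.03 to 2.49 when a library was left out. Its call was lost with limma-voom (2.10, adjusted p = 0.0688) and without PDGFRα- library 3 (2.26, edgeR adjusted p = 0.0504). These fits use the contrast that chose Pde1c, so they describe only how its call depends on the processing. The number of the 10 genes called higher was 2 with no filter on low counts, with DESeq2 and with the replicate block (Pde7b added each time), 0 with limma-voom, and 0 to 1 when a library was left out; the number called lower was 0 throughout. Pathway genes called higher were 1 with no filter and with DESeq2 and 5 with the replicate block (edgeR), and those called lower were 1 with no filter and 2 with the block. The block called Ptger2, Calcrl, Adcy2, Gucy1a1 and Prkar2b as higher and Npr1 and Fos as lower, among 355 calls over all 15643 genes. There were 38 calls over all genes without the block, 277 of 29254 with no filter, 205 of 14970 with DESeq2 and 45 of 15643 with limma-voom. Same-numbered libraries correlated at 0.23, 0.18, 0.02 and 0.25 in their deviations from the group means over 15643 genes, and for 7 of 8 libraries the best match carried the same number. Number 3 lay under the 0.1 taken as the minimum for pairing, so pairing is not established.

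In the test of the replicate number, added after the data were seen, 4 of the 10 genes passed with no filter, 3 with limma-voom and with DESeq2, and 1 to 4 when a library was left out, beside 4.90%, 8.82%, 9.82% and 2.47% to 8.04% of all genes and 4.28% in the test as reported. Pde4b passed in each, with adjusted p from 3.3e-13 to 0.00723. Signs turned for 9 genes, none of them called. Pde5a was at -0.01 with RLE size factors, DESeq2 and limma-voom. Leaving out a library gave -0.09 to 0.11 for Pde5a, -0.20 to 0.25 for Pde4b, -0.01 to 0.44 for Pde4d, -0.34 to 0.01 for Pde3b, -0.01 to 0.27 for Adcy7, -0.13 to 0.29 for Abcc5, -0.37 to 0.12 for Abcc4, -0.20 to 0.27 for Prkg1 and -0.08 to 0.24 for Ppp1r12a. Without length, 9 of 20 places in the order of the 10 genes moved. The cause of these shifts was not tested. Low counts limit Pde8b, with 3 reads in 1 library.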
